A study of Homo sapiens with 36 samples.

Results

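The effect of estradiol on gene expression in cells that also received progesterone was measured in ZR-75-1, an established human luminal breast cancer cell line that carries the estrogen receptor. The comparison sets the 4 arrays labelled E2+PROG (estradiol with progesterone) against the 4 arrays labelled PROG (progesterone alone), which are 8 of the 36 Illumina bead arrays of the study. The members were taken by their labels, and every one of the 12195 genes tested was considered. The other groups each hold 4 arrays. They received the ethanol vehicle (VC), estradiol (E2), the androgen dihydrotestosterone (DHT), the synthetic progestin medroxyprogesterone acetate (MPA), E2 with DHT or E2 with MPA. A ninth group, labelled E2s+PROG, has the same treatment title as E2+PROG, estradiol + progesterone. What the s stands for is not stated. Before the 16 h treatment all cells were held for 48 h in 10% serum stripped of hormones. The stated dose of E2 and of DHT, alone and together, is 10 nM. No dose is stated for progesterone, for MPA or for the E2 given with either, so a dose of E2 that differs between groups cannot be told apart from the presence of progesterone. All results come from 1 cell line, and the labels do not state whether the 4 replicates of a group were grown as separate cultures. The p-values therefore reflect the spread among these arrays, which could be technical.

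Estradiol binds the estrogen receptor, encoded by ESR1, a transcription factor that acts at estrogen response elements in DNA and raises genes such as GREB1, TFF1 and PGR. PGR encodes the progesterone receptor, and in breast cancer cells whose PGR depends on estrogen, little receptor for progesterone is made without it. The progesterone receptor shares its DNA element with the glucocorticoid receptor, and FKBP5, a chaperone partner of steroid receptors, is a common target of both.

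Between 34.3% and 37.4% of probes on the 8 arrays were above background, with median raw intensities from 140.3 to 194.7. The 9 luminal markers checked, among them GATA3, FOXA1, KRT18, CDH1 and EPCAM, were above background on all 8 arrays. The basal keratins KRT5 and KRT14, the mesenchymal VIM and ZEB1, the leukocyte marker PTPRC and the endothelial CDH5 were above background on 0 of 8. Other markers of the same classes were detected, with the stromal COL1A1 and the myeloid CD14 and CD68 above background on all 8 arrays and the endothelial PECAM1 on 4 PROG and 3 E2+PROG arrays. The E2+PROG arrays did not lie together. On the main axis of difference between replicates, E2+PROG replicates 2 and 4 scored -34.03 and -24.11, replicates 1 and 3 scored 34.94 and 23.2, and the PROG arrays lay between -2.75 and 5.96. Replicates 2 and 4 come from a run of neighbouring columns, 13 to 24, of the deposited table that holds 12 arrays and 0 PROG arrays, and the labels do not call this run a batch. Counts are therefore also given for arrays outside the run, where E2+PROG keeps replicates 1 and 3. No comparison of E2+PROG with PROG within the run was possible. The run also holds E2 replicates 1 and 3, VC replicate 4, E2+DHT replicate 1 and DHT replicates 1, 2 and 4. It holds E2+MPA replicates 3 and 4 and E2s+PROG replicate 4, and no MPA array. The vehicle arrays, which enter only where effects are compared, spread from -53.78 for replicate 1 to 42.18 for replicate 2.

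Adding estradiol to progesterone raised more genes than it lowered. Of the 12195 genes, 586 passed the threshold (limma, Benjamini-Hochberg adjusted p under 0.05 over all genes), 459 higher and 127 lower, which is 4.81% of the genes tested, 3.76% higher and 1.04% lower. Among these, 198 rose and 33 fell by more than 1 on the log2 scale. The 4 and 4 arrays did not overlap for 1069 genes higher (8.77%) and 626 lower (5.13%). The median difference over all genes was 0.03. These are levels per amount of RNA in bulk samples, where fewer cells that express a gene and less of its RNA per cell cannot be told apart. Outside the run of columns, with 2 E2+PROG arrays, 303 genes passed, 227 higher and 76 lower, and 275 of them were among the 586.

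The gene with the largest increase was P3H2, which encodes a collagen prolyl 3-hydroxylase. Its log2 signal was 6.74, 6.07, 6.18 and 6.32 on the 4 PROG arrays and 10.42, 10.77, 10.61 and 10.73 on the 4 E2+PROG arrays. The lowest E2+PROG array lay well above the highest PROG array. P3H2 rose 19.8-fold (log2 4.30 ± 0.21 SE, adjusted p = 2.89e-16). GREB1, an estrogen-induced growth regulator, read 7.26, 6.77, 6.85 and 7 with PROG and 10.92, 11.29, 11.22 and 11.36 with E2+PROG, an 18.7-fold rise (adjusted p = 6.39e-15). All 3 of its probes were higher, by a log2 of 0.56 to 4.23. PDZK1, a scaffold for membrane transporters, read 6.33, 6.01, 5.76 and 5.51 with PROG, where 2 of 4 arrays were above background, and 9.77, 10.23, 10.05 and 10.40 with E2+PROG. It rose at least 16.8-fold (adjusted p = 7.38e-20), a lower bound taken against the lowest signal above background on each dim array. The groups were far apart for all 3 genes.

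SERPINA3, the protease inhibitor alpha-1-antichymotrypsin, read 8.61, 9.09, 8.58 and 9.03 with PROG and 12.47, 12.42, 12.51 and 12.88 with E2+PROG, and rose 13.4-fold (adjusted p = 6.33e-14). ANXA1, a calcium-dependent phospholipid-binding protein, read 8.10, 8.51, 8.31 and 8.12 against 12.08, 11.81, 11.77 and 11.79, and rose 12.2-fold (adjusted p = 1.82e-15). For both genes every E2+PROG array was above every PROG array, as the choice of the largest changes required. PHACTR3, which binds actin and protein phosphatase 1, was above background on 0 of 4 PROG arrays (5.43, 5.50, 5.15 and 5.4). It read 8.83, 9.51, 8.80 and 9.66 with E2+PROG, at least 9.54-fold higher, with the 2 arrays of the run above the other 2. C1orf116, an androgen-induced gene, read 6.53, 7.01, 7.14 and 6.97 against 10.21, 10.50, 10.33 and 10.64 and rose 11.3-fold (adjusted p = 2.23e-15). CALD1, the actin- and myosin-binding protein caldesmon, was above background on 0 of 4 PROG arrays and stood at 8.75 ± 0.12 (SD, n = 4) with E2+PROG, a rise of at least 6.98-fold. TNNI2, a troponin subunit, above background on 2 of 4 PROG arrays, rose at least 12.2-fold, and SUSD3, a membrane protein raised by estrogen, rose 9.39-fold. CYP2B7P, above background on 0 of 4 PROG arrays, rose at least 8.90-fold, but it is a near copy of CYP2B6 and its probe may read both.

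**Figure D1:**
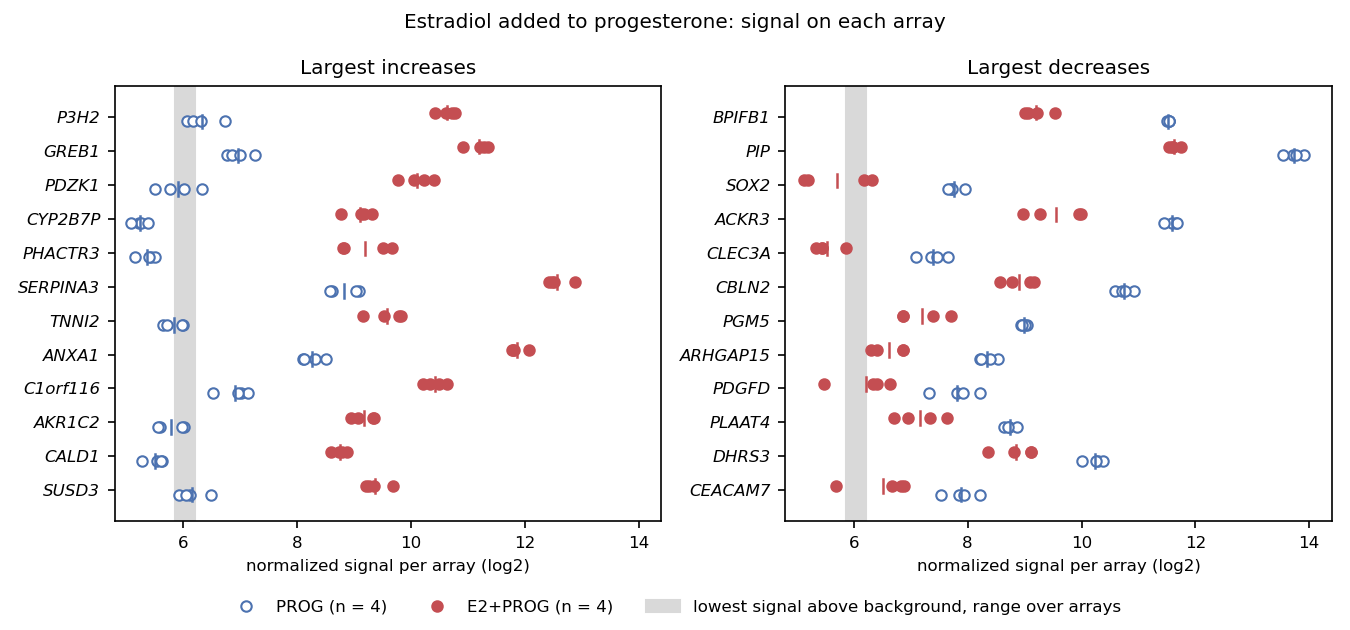
Normalized signal (log2) on each array for the 12 genes with the largest increases (left) and the 12 with the largest decreases (right) among genes past the threshold whose arrays do not overlap. Open blue points are the 4 PROG arrays, filled red points the 4 E2+PROG arrays, short vertical lines the group means, and the grey band the lowest signal above background, which ran from 5.86 to 6.21 over arrays. Among the decreases SOX2, CEACAM7, PDGFD and ACKR3 are the most spread over E2+PROG arrays, and BPIFB1 is the least spread over PROG arrays.

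The decreases were smaller and included several secreted proteins. BPIFB1, a secreted protein of mucosal surfaces, read 11.54, 11.53, 11.51 and 11.53 with PROG and 9.06, 9.54, 9 and 9.21 with E2+PROG, 5.0-fold lower (adjusted p = 1.95e-13). PIP, the prolactin-induced protein secreted by apocrine cells, read 13.91, 13.72, 13.54 and 13.77 against 11.54, 11.61, 11.74 and 11.59 and was 4.32-fold lower (adjusted p = 4.59e-09). In both, all 4 PROG arrays were above all 4 E2+PROG arrays, which the choice of the largest changes required. ACKR3, a scavenging chemokine receptor, read 11.66, 11.59, 11.68 and 11.45 against 9.99, 8.97, 9.95 and 9.27, 4.15-fold lower, with the 2 arrays of the run lowest. CBLN2, a secreted synaptic organiser, was 3.6-fold lower (10.75 ± 0.14 to 8.90 ± 0.28, SD, n = 4), and PGM5, a protein of adhesion sites related to phosphoglucomutase, 3.44-fold (8.98 ± 0.05 to 7.20 ± 0.42). SOX2, a transcription factor of stem cells, fell from 7.76 ± 0.14 to 5.71 ± 0.63, where 2 of 4 arrays were above background, and was at least 3.07-fold lower. Its E2+PROG arrays split, at 6.18 and 6.32 for replicates 1 and 3 against 5.20 and 5.12 for replicates 2 and 4. CLEC3A, a C-type lectin of cartilage, was above background on 0 of 4 E2+PROG arrays and at least 2.68-fold lower. DHRS3, a retinal reductase, and PLAAT4, a retinoid-induced phospholipase, were 2.61-fold and 2.98-fold lower. ARHGAP15, a Rac GTPase-activating protein, was 3.33-fold lower. PDGFD, a platelet-derived growth factor, and CEACAM7, a cell adhesion molecule, were each above background on 3 of 4 E2+PROG arrays. They fell at least 2.73-fold and 2.39-fold, at an adjusted p of 0.0679 and 0.0555 outside the run.

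Promoters, the 250 bases before the start of a gene, were taken from RefSeq (GRCh38.p14), and 73 of the 107 genes named by the rule had one. The full estrogen response element, GGTCA followed after any 3 bases by its reverse complement, was found in 0 of these 73, in 1 of the 9964 promoters of genes tested and in 0.0439% of all 27305 promoters, and the element of the receptors for progesterone and glucocorticoid, GNACA followed in the same way by its reverse complement, in 0 of 73, in 21 of 9964 and in 0.33% of all. The half-site GGTCA, searched on both strands, was in 27 of 73 (37%) against 30.2% for genes tested and 33.1% for all promoters, and TGTTCT in 8 of 73 (11%) against 7.56% and 12.4%. A match is a description of the sequence and not a binding site, and GGTCA is part of the estrogen response element. These 4 promoters are shown because they belong to a gene that rose with E2 in each of the 4 hormone settings (PDZK1), to genes that rose with E2+PROG and did not pass under E2 alone (P3H2 and C1orf116) and to the gene with the largest decrease (BPIFB1), and they were chosen after the values were seen. The PDZK1 promoter lies on the minus strand at chr1:145707401-145707650, with GGTCA at -68 to -64 and TGTTCT at -200 to -195 from the start, both in capitals. P3H2 lies on the minus strand at chr3:190122279-190122528, C1orf116 on the minus strand at chr1:207032757-207033006 and BPIFB1 on the plus strand at chr20:33282964-33283213, and their windows hold none of the 4 motifs.
PDZK1 promoter: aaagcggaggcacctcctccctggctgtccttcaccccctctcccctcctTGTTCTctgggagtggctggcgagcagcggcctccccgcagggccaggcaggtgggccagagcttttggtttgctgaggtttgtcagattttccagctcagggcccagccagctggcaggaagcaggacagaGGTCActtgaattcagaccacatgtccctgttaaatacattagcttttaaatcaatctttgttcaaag
P3H2 promoter: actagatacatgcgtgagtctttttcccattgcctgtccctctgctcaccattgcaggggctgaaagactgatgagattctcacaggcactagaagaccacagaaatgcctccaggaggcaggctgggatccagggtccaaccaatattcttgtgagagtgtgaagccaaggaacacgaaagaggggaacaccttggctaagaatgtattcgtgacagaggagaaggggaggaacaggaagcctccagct
C1orf116 promoter: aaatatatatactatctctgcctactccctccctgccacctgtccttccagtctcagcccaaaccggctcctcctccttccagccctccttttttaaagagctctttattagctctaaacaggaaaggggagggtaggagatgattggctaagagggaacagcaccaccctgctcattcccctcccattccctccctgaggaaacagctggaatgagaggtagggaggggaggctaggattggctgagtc
BPIFB1 promoter: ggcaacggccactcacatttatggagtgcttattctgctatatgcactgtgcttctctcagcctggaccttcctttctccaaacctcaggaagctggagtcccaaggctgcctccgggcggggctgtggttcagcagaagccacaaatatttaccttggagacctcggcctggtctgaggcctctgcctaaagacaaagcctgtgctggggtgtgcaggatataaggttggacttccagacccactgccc

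Gene lists were set beside all genes tested, of which 3.76% rose and 1.04% fell. The lists were chosen with earlier results of these data known and were not tested as sets, so their counts are descriptions. Many genes known to be induced by estrogen rose. Of the 55 tested members of that list, 22 rose and 0 fell, with a median of 0.54 against 0.03 over all genes. Outside the run, 18 rose and 0 fell. Besides GREB1, PDZK1 and SUSD3, HSPB8, a small heat shock protein, read 8.63, 7.52, 7.21 and 8.06 with PROG and 11.20, 9.90, 11.27 and 10.74 with E2+PROG, and rose 7.58-fold. The spread of HSPB8 was wide in both groups, but the groups did not overlap. CCN5, a secreted matricellular protein, rose 6.56-fold, TSKU, a secreted leucine-rich proteoglycan, 6.46-fold, IGFBP4, which binds insulin-like growth factors, 4.83-fold, and IRS1, the insulin receptor substrate, 4.35-fold. TFF1, a secreted trefoil peptide, read 12.46, 12.49, 12.37 and 12.48 against 13.75, 14.15, 13.79 and 14.19 and rose 2.86-fold (adjusted p = 8.88e-05). MYC, a transcription factor that drives growth, rose 1.6-fold (adjusted p = 0.00678), with 1 of its 2 probes at a log2 of -0.01. Its adjusted p was 0.0527 without E2+PROG replicate 2 0.123 under median scaling and 0.403 for the mean of its probes. Several well-known estrogen targets did not pass. The cell cycle gene CCND1 differed by a log2 of 0.31 (95% interval 0.06 to 0.55, adjusted p = 0.167), MYB by 0.23 (0.02 to 0.45, 0.254), XBP1 by -0.04 (-0.38 to 0.29, 0.924) and BCL2 by -0.11 (-0.52 to 0.30, 0.819). CXCL12, a chemokine, was above background on 0 of 8 arrays.

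Beside 3.76% higher and 1.04% lower over all genes, 0 rose and 4 fell of 23 tested genes known to be lowered by estrogen. The list median was -0.43. Without PROG replicate 4, 2 passed. BCAS1, a gene amplified in breast cancer, was 2.01-fold lower (adjusted p = 0.0104), and PSCA, a cell surface antigen above background on 0 of 4 E2+PROG arrays, at least 2.09-fold lower. IL1R1, the interleukin-1 receptor, and BIK, a pro-apoptotic BCL2 family member, passed at 0.0192 and 0.0263. The call of IL1R1 was lost without E2+PROG replicate 2 or 4 or PROG replicate 1 or 4, with an adjusted p of 0.0603 to 0.138. That of BIK was lost without E2+PROG replicate 1 or 3 or PROG replicate 1, 2 or 4, at 0.0597 to 0.122.

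The genes of both receptors moved in opposite directions. ESR1 read 10.97, 10.87, 10.87 and 10.83 on the PROG arrays and 9.95, 10.22, 9.85 and 10.29 with E2+PROG, and every E2+PROG array was lower. It fell by 0.81 ± 0.18 (SE) on the log2 scale (adjusted p = 0.00297). PGR read 5.38, 6.22, 6.37 and 5.44 with PROG, where 2 of 4 arrays were above background, and 8.05, 7.14, 7.61 and 6.75 with E2+PROG. It rose at least 2.4-fold (adjusted p = 2.6e-05), to a level of 7.39 ± 0.57 (SD, n = 4) against 8.94 ± 0.36 with E2 alone. Among 32 receptors and coregulators tested, these were the only calls, 1 higher and 1 lower, where 3.76% of all genes rose and 1.04% fell. Without E2+PROG replicate 3, 2 members were lower.

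Of 32 tested genes in the progestin-induced list, 11 rose and 0 fell, with a median of 0.26. Over all genes, 3.76% rose and 1.04% fell. The list includes P3H2 and NELL2 and was chosen with earlier results of these data known, so its count is no outside support. Outside the run 7 rose and 0 fell. FKBP5 read 9.78, 9.68, 9.65 and 9.86 with PROG and 11.37, 11.51, 11.20 and 11.48 with E2+PROG, and rose 3.13-fold (adjusted p = 6.66e-11). Its level with PROG alone, 9.74 ± 0.10, was near the vehicle level of 9.57, and its level with E2+PROG, 11.39 ± 0.14, near those with DHT and MPA alone, 11.44 and 11.25. NELL2, a secreted neural protein, read 7.84, 7.78, 8.10 and 7.65 against 10.55, 10.71, 10.47 and 10.81 and rose 6.92-fold. HSD11B2, which inactivates cortisol, read 9.26, 9.25, 8.89 and 9.35 against 10.72, 10.62, 10.66 and 10.96 and rose 2.93-fold (adjusted p = 1.79e-10). The arrays of these genes did not overlap between groups. WNT4, a ligand of mammary side branching, rose 3.09-fold (adjusted p = 0.00145). STAT5A, a transcription factor of mammary differentiation above background on 3 of 4 PROG arrays, rose at least 2.33-fold. TFCP2L1, a transcription factor above background on 0 of 4 PROG arrays, rose at least 2.83-fold. The list also holds P3H2 and IRS2, which rose 19.8-fold and 1.89-fold.

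**Figure D2:**
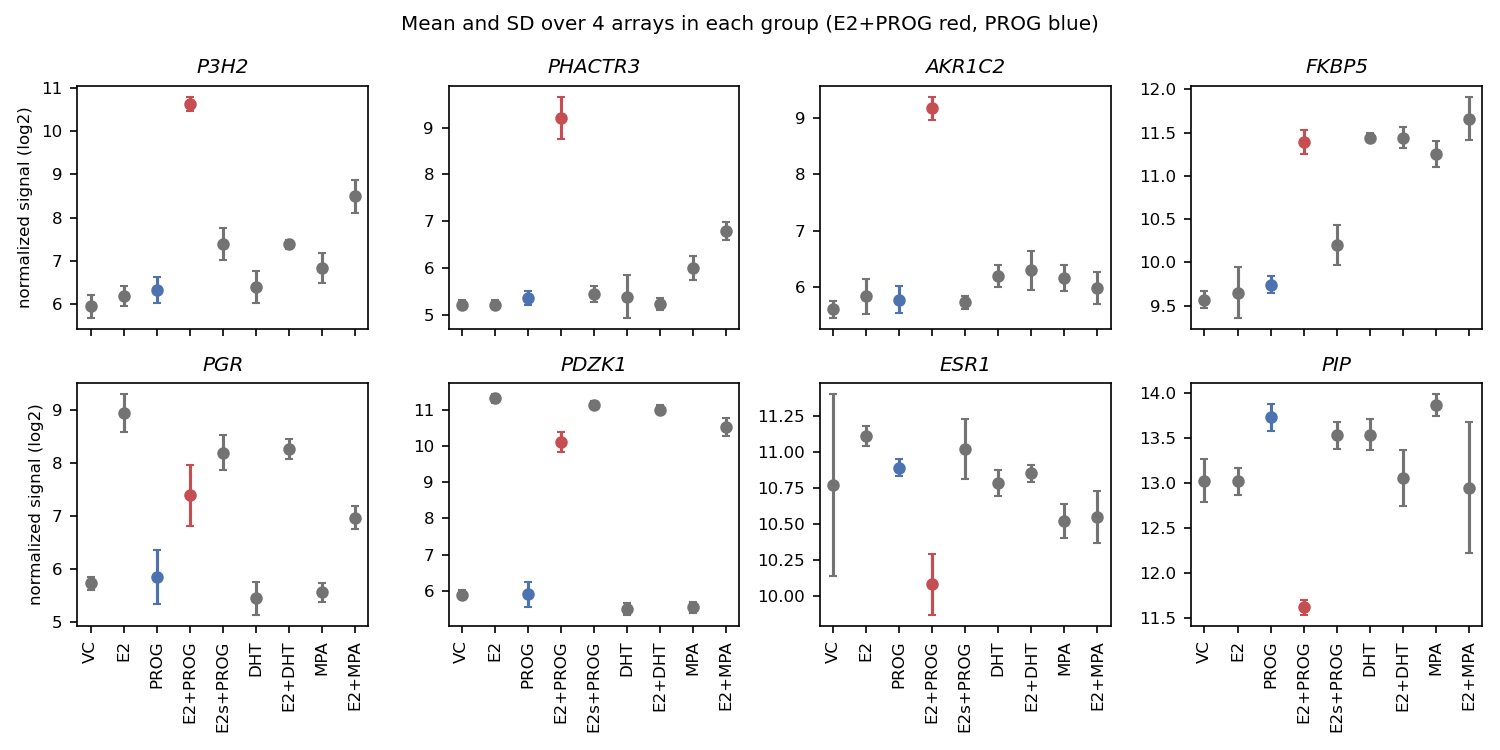
Mean normalized signal (log2) in each of the 9 groups, with bars of 1 SD over 4 arrays, E2+PROG in red and PROG in blue. P3H2, PHACTR3 and AKR1C2 stand highest with E2+PROG, FKBP5 with E2+PROG stands near the levels with DHT and MPA, PGR and PDZK1 are high in every group with E2, and ESR1 and PIP are lowest with E2+PROG. The y axes differ between genes, and the wide bar of ESR1 is that of the vehicle group.

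Steroid-metabolizing enzymes held both large increases and a decrease. Of 21 tested, 4 rose and 1 fell, where 3.76% of all genes rose and 1.04% fell. AKR1C2, which reduces DHT and progesterone metabolites, was above background on 2 of 4 PROG arrays (6.01, 5.97, 5.6 and 5.55) and read 9.07, 9.33, 8.94 and 9.35 with E2+PROG, at least 9.36-fold higher (adjusted p = 1.17e-15). AKR1C3, a 17-keto and 20-ketosteroid reductase, read 6.70, 6.40, 6.68 and 6.73 against 9.43, 9.72, 9.74 and 9.76 and rose 8.19-fold. The groups did not overlap in either, but these enzymes are close copies of each other and their probes may read several of them. UGT2B11, one of a family of near-identical glucuronosyltransferases, was at least 1.4-fold lower (adjusted p = 0.0158). That call was lost without E2+PROG replicate 2 or 4 or PROG replicate 2 or 3, at an adjusted p of 0.0603 to 0.13. UGT2B28 was above background on 1 of 8 arrays. Of 27 androgen-induced genes tested, 3 rose and 2 fell, with a median of 0.09. C1orf116, FKBP5 and PMEPA1, a regulator of TGF-beta signalling, rose, and PIP and UGT2B11 fell. Of this list 5 rose without E2+PROG replicate 1, and 1 fell without E2+PROG replicate 2 or 4 or PROG replicate 2 or 3. PMEPA1 rose 1.5-fold (adjusted p = 0.0179) and did not pass without E2+PROG replicate 2 or 4 or PROG replicate 1 or 3, at 0.0611 to 0.101.

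Among 36 genes of fatty acid synthesis and oxidation, 3 rose and 1 fell, or 2 fell without E2+PROG replicate 1. FADS1, a fatty acid desaturase, read 7.80, 7.45, 7.82 and 7.72 against 10.05, 10.29, 10.11 and 10.87 and rose 6.19-fold, and FADS2, a second desaturase of the same pathway, rose 3.34-fold. ACOX2, a peroxisomal acyl-CoA oxidase, rose 4.01-fold (9.10 ± 0.12 to 11.10 ± 0.10, SD, n = 4). THRSP, a nuclear protein of lipogenesis, read 11, 10.58, 10.59 and 10.91 against 9.69, 9.69, 9.89 and 9.84 and fell by 0.99 on the log2 scale (adjusted p = 2.48e-05). These 4 genes were apart between groups and kept their calls outside the run, at an adjusted p of 0.00889 or less. Of 27 genes of cholesterol synthesis and uptake, 3 rose and 2 fell, with a median of 0.02. In this list 1 rose without E2+PROG replicate 2 or 4 or PROG replicate 1 or 4. Beside both lists, 3.76% of all genes rose and 1.04% fell. INSIG2, which retains the sterol sensor in the endoplasmic reticulum, was 1.56-fold lower, and MYLIP, a ligase that degrades the LDL receptor, 1.38-fold lower. LSS, lanosterol synthase, was 1.56-fold higher. None of these passed outside the run, at an adjusted p of 0.101, 0.12 and 0.153, or under median scaling, at 0.171, 0.462 and 0.058, where the list had 0 higher and 0 lower.

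Several ion channel genes rose. Of 26 tested, 9 rose and 0 fell, with a median of 0.19, where 3.76% of all genes rose and 1.04% fell. This list too was chosen with earlier results of these data known, so the count describes its members and not ion channels at large. KCNQ3, a voltage-gated potassium channel, read 6.23, 6.68, 6.67 and 5.98 with PROG and 9.41, 8.93, 9.57 and 9.41 with E2+PROG, and rose 7.68-fold (adjusted p = 9.57e-15). SCNN1G, a subunit of the epithelial sodium channel above background on 0 of 4 PROG arrays, rose at least 3.94-fold, and the beta subunit SCNN1B rose 3.03-fold. KCNF1, a modifier of voltage-gated potassium channels, rose 3.94-fold. KCNH1, a potassium channel raised by estrogen, was above background on 0 of 4 PROG arrays. It stood at 7.29 ± 0.20 (SD, n = 4) with E2+PROG, a rise of at least 2.54-fold, against 9.38 with E2 alone. Outside the run 6 members of this list rose and 0 fell, and without E2+PROG replicate 1 the count lower was 1.

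Of 15 tested basal and mesenchymal markers, 6 rose and 0 fell, with a median of 0.32. Over all genes, 3.76% rose and 1.04% fell. The list holds 32 markers, and those without a named probe above background on 4 of the 36 arrays were not tested. The 4 E2+PROG arrays alone could thus admit a marker such as CAV1, so the count describes these members only. The 6 that rose included ANXA1, LAMB3 (a laminin chain, 2.73-fold), CAV1 and CAV2 (caveolins). The others were KRT15 (a basal keratin, 2.28-fold) and ITGB4 (the integrin of hemidesmosomes, 2.25-fold). CAV1 was above background on 0 of 4 PROG arrays (5.27, 5.01, 5.05 and 5.11) and on all 4 E2+PROG arrays (6.32, 6.29, 6.53 and 6.09), at least 1.28-fold higher (adjusted p = 1.76e-10). With no filter on detection, another CAV1 probe, brighter on average but dropped by the filter, stood for the gene. That probe differed by a log2 of 0.24 and did not pass (adjusted p = 0.46). CAV2 was above background on 2 of 4 PROG arrays and rose at least 1.8-fold, at an adjusted p of 0.217 outside the run. The defining basal keratins KRT5 and KRT14 stayed below background on all 8 arrays. With the processed table of the authors, with array weights or with the run as a block, and outside the run, 1 member of this list was lower. Of 34 luminal markers 6 rose and 1, ESR1, fell. KRT8, a luminal keratin, rose 1.55-fold and MUC1, a membrane mucin, 1.58-fold. Under median scaling, which called 1 luminal marker higher in all, their adjusted p was 0.273 and 0.318. VWF, an endothelial marker, was above background on 0 of 4 PROG arrays and 4 of 4 E2+PROG arrays (5.72 ± 0.09 to 6.81 ± 0.34, SD, n = 4), at least 1.82-fold higher (adjusted p = 0.0147). The mean level of the 3 endothelial markers ran from 5.80 to 5.92 over the PROG arrays and 6.09 to 6.21 over the E2+PROG arrays, with CDH5 below background on all 8. PECAM1 stood at 6.64 with PROG and 6.31 with E2+PROG, CDH5 at 5.25 and 5.33 and VWF at 5.72 and 6.81, and the part of these markers in any result was not tested. The call of VWF was lost without E2+PROG replicate 3 or 4, at 0.0555 and 0.0546, and outside the run, at 0.16.

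Growth factor ligands and receptors had 7 members higher and 1 lower of 47 tested, and without E2+PROG replicate 1 a count of 2 lower. The shares over all genes were 3.76% higher and 1.04% lower. TGFA, a ligand of the epidermal growth factor receptor, read 8.59, 8.35, 8.39 and 8.45 with PROG and 9.36, 10.02, 9.57 and 10.30 with E2+PROG, and rose 2.57-fold (adjusted p = 3.19e-05). Its groups did not overlap, and the 2 arrays of the run were highest. IGFBP4, IRS1 and WNT4 stand in this list too, and its decrease was ACKR3. Actin cytoskeleton regulators had 7 higher and 0 lower of 51. FSCN1, the actin bundler fascin, read 8.46, 8.30, 8.71 and 8.25 against 9.36, 9.41, 9.40 and 9.30 and rose 1.91-fold (adjusted p = 1.61e-06). Without E2+PROG replicate 2, 3 of these passed, and without E2+PROG replicate 4 or PROG replicate 3 or 4, 4 passed. Outside the run 2 rose and 1 fell.

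Of 49 genes of G1/S and DNA replication 1 rose and 0 fell, where 3.76% of all genes rose, and their median of 0.33 lay above the 0.03 of all genes. Outside the run 0 rose and the median was 0.22. The count was 6 without E2+PROG replicate 1, 2 without E2+PROG replicate 3, and 0 without E2+PROG replicate 2 or 4 or PROG replicate 1 or 4. It was 8 with array weights, 4 without background correction and 0 under median scaling. Of 48 genes of G2/M and mitosis 2 rose and 0 fell (median 0.18). The count higher was 4 under array weights and 0 under median scaling or outside the run. Of 43 ribosome biogenesis genes 1 rose (median 0.08), and of 20 amino acid transporters 1 rose, SLC7A2, a cationic amino acid transporter, 2.21-fold. Leaving out single arrays gave 0 to 2, 0 to 1 and 1 to 2 of these. Apoptosis regulators had BOK, a BCL2 family member, 2.84-fold higher and BIK lower, 1 each of 30. Of 36 genes of hypoxia and glycolysis 4 rose, with PFKFB3, which raises the glycolytic activator fructose 2,6-bisphosphate, 2.43-fold higher, 2 rose without E2+PROG replicate 4, and 1 fell without PROG replicate 1. Of 35 genes of endoplasmic reticulum and amino acid stress 3 rose, and 1 without E2+PROG replicate 2 or 4 or PROG replicate 1 or 4. Outside the run 0 of these rose. Of 28 interferon and antigen presentation genes 2 rose, or 1 without E2+PROG replicate 1 or 2 or PROG replicate 2, 3 or 4. CXCL10, an interferon-induced chemokine, was above background on 0 of 4 PROG arrays and rose at least 1.72-fold (6.60, 7.09, 6.46 and 6.78 with E2+PROG). Of 11 fibroblast and stromal markers 2 rose, among them FBLN1, a matrix glycoprotein, 1.81-fold. The 19 housekeeping genes had a median of 0.13.

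**Figure D3:**
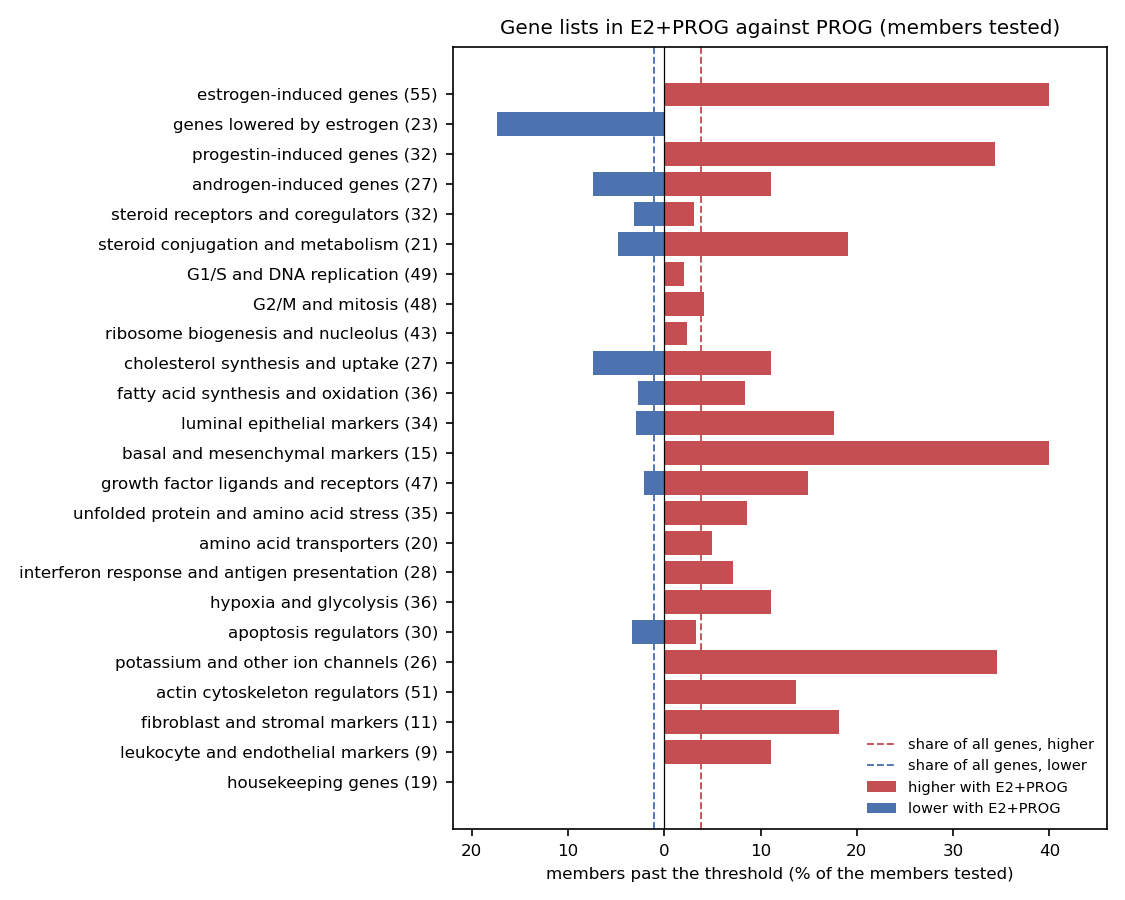
Share of the tested members of each list past the threshold in E2+PROG against PROG, higher to the right in red and lower to the left in blue, with the number of members tested in brackets. Dashed lines mark the share of all genes, 3.76% higher and 1.04% lower. The lists were chosen with earlier results of these data known. Estrogen-induced, progestin-induced, basal and mesenchymal and ion channel genes have the longest bars to the right, and genes lowered by estrogen the longest to the left.

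Estradiol was also given with vehicle, with DHT and with MPA, and these comparisons share no array with E2+PROG against PROG. E2 against vehicle called 1.86% of genes, 145 higher (1.19%) and 82 lower (0.672%). Of the 459 genes higher with E2+PROG, 85 were also higher there, which is 18.5% of the 459 and 58.6% of the 145, and 24 of the 127 lower genes were lower there (18.9% and 29.3%). E2+DHT against DHT called 1.33%, 122 higher (1%) and 40 lower (0.328%), of which 83 and 21 were shared in direction (68% and 52.5% of that list, 18.1% and 16.5% of the E2+PROG lists). E2+MPA against MPA called 1.35%, 137 higher (1.12%) and 28 lower (0.23%), of which 107 and 13 were shared (78.1% and 46.4% of that list, 23.3% and 10.2% of the E2+PROG lists). Genes past the threshold in opposite directions numbered 6, 2 and 0. Outside the run E2 against vehicle called 1275 genes and E2+MPA against MPA 89, and the overlaps were counted on all arrays. The DHT group keeps only replicate 3 outside the run, so no count is given there for E2+DHT against DHT. Across all 12195 genes, called or not, the effect of E2 with progesterone was set against the other effects. It had a Pearson correlation of -0.12 with that under vehicle, -0.12 with that under DHT and 0.66 with that under MPA. Genes are not independent and share the arrays of each group. The run of columns holds E2+PROG and E2+MPA arrays but no PROG or MPA arrays. It holds DHT replicates 1, 2 and 4 but only replicate 1 of E2+DHT. No correlation was taken outside the run, and its part in these values was not tested. In all 4 comparisons 63 genes were higher, among them GREB1, PDZK1, PGR, SUSD3, IGFBP4 and SERPINA3, and 7 were lower, among them ACKR3, PGM5 and CBLN2.

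**Figure D4:**
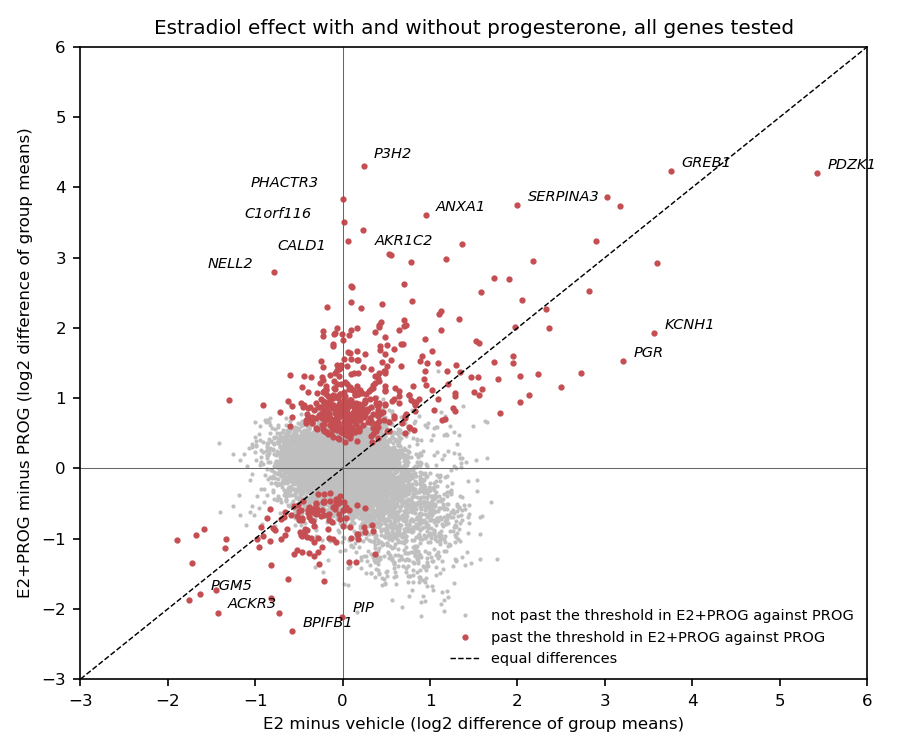
Log2 difference of E2+PROG against PROG (y axis) plotted against that of E2 against vehicle (x axis) for all genes tested, with genes past the threshold in E2+PROG against PROG in red and others in grey. P3H2, PHACTR3, C1orf116, AKR1C2, CALD1 and NELL2 stand high on the y axis and near or below 0 on the x axis, whereas PDZK1, KCNH1 and PGR lie below the dashed line of equal differences. The grey cloud at the lower right holds genes that did not pass with E2+PROG.

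The difference between the estradiol effect with progesterone and that with vehicle was itself tested and passed for 188 genes (1.54%), 165 higher (1.35%) and 23 lower (0.189%). P3H2 differed by a log2 of 4.06 (adjusted p = 3.9e-11), its E2 effect being 4.30 with progesterone and 0.24 with vehicle. PHACTR3 differed by 3.83, NELL2 by 3.57, C1orf116 by 3.48, CALD1 by 3.17 and AKR1C2 by 3.16, where their effects with vehicle lay between -0.78 and 0.23. The sizes for P3H2, PHACTR3, CALD1, AKR1C2 and C1orf116 are fitted values and not exact, since these genes were at or near background in the vehicle, E2 or PROG groups. FKBP5 differed by 1.57 (adjusted p = 1.62e-06) and HSD11B2 by 1.54, with effects of 0.08 and 0.01 under vehicle. All of these also passed outside the run. Of the progestin-induced list 7 passed higher and 0 lower, and of the basal and mesenchymal list 5 passed higher and 0 lower.

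Of the estrogen-induced list 0 passed higher and 4 lower in the same difference. For all 4 the baseline with PROG, and that with vehicle, was at or near background, so the sizes below are fitted values and not exact, and the levels with E2 are given beside them. PGR differed by -1.68 (adjusted p = 0.00347), with fitted effects of 3.21 with vehicle and 1.53 with progesterone, and did not pass with only the groups compared (0.0626). KCNH1 differed by -1.64, PDZK1 by -1.22 and CXCL12 by -1.51 (adjusted p = 0.000257, 0.000493 and 0.000455). With the authors' processed table none of these 4 differences passed, at an adjusted p of 0.19 for PGR, 0.159 for KCNH1, 0.145 for PDZK1 and 0.0539 for CXCL12. PGR stood at 8.94 ± 0.36 (SD, n = 4) with E2 and 7.39 ± 0.57 with E2+PROG, KCNH1 at 9.38 ± 0.32 and 7.29 ± 0.20, and PDZK1 at 11.31 ± 0.12 and 10.11 ± 0.27. CXCL12 was above background on 4 of 4 E2 arrays and 0 of 4 E2+PROG arrays. GREB1 differed by 0.47 (adjusted p = 0.399) and TFF1 by -0.21 (0.741), which did not pass. ESR1 differed by -1.15 (adjusted p = 0.00847), although its vehicle arrays were spread widely (10.77 ± 0.63, SD, n = 4). That difference did not pass under median scaling (0.161), with only the groups compared (0.125) or outside the run (0.0543). PIP differed by -2.10, at an adjusted p of 0.0761 under median scaling, and BPIFB1 by -1.74. PIP read 13.03 with vehicle, 13.02 with E2 and 13.73 with PROG, against 11.62 with E2+PROG. Median scaling moved the median difference over all genes from 0.088 to 0.19, and from 0.072 to -0.148 in the difference from the effect with DHT. This count depended on single arrays, with 393 genes without VC replicate 2, 345 without E2 replicate 1, 123 without E2 replicate 4 and 116 without E2+PROG replicate 2, and 174 passed outside the run.

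With DHT in place of vehicle 151 genes passed (1.24%), 136 higher (1.12%) and 15 lower (0.123%), and with MPA 83 (0.681%), 80 higher (0.656%) and 3 lower (0.0246%). PHACTR3 differed by 3.99 and 3.04, P3H2 by 3.31 and 2.64, AKR1C2 by 3.30 and 3.57, and C1orf116 by 3.28 and 3.03 from the estradiol effects with DHT and with MPA. AKR1C3 differed by 3.34 from the effect with DHT and ANXA1 by 2.96 from the effect with MPA. C1orf116 stood at 10.30 with DHT alone and 10.52 with E2+DHT, levels near its 10.42 with E2+PROG. P3H2 rose with E2+MPA too, from 6.83 to 8.49 (log2 1.66, adjusted p = 1.82e-06), and CALD1 from 6.50 to 7.63. BPIFB1 differed by -1.66 and -2.06 and PIP by -1.63 and -1.19 from the effects with DHT and with MPA, the first not passing under median scaling (adjusted p = 0.086). The PIP difference from MPA (adjusted p = 0.0473) was lost on leaving out any of 14 of the 16 arrays, at 0.0528 to 0.135. PGR differed by -1.28 from the effect with DHT (adjusted p = 0.0472), which was lost on leaving out any of 10 of the 16 arrays, at 0.0517 to 0.157, and by 0.11 from the effect with MPA (0.998). Without DHT replicate 3, 644 genes differed from the effect with DHT. That replicate is the only DHT array outside the run, so the spread among DHT arrays cannot be measured there. No conclusion is drawn from the count outside the run for DHT. On the main axis of difference between replicates DHT replicate 3 scored 48.05. Outside the run 47 genes differed from the effect with MPA.

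E2s+PROG, also titled estradiol + progesterone, was set beside E2+PROG for the same genes. It shares the PROG arrays, so its values are given only side by side. Against PROG, 160 genes passed with E2s+PROG (1.31%), 142 higher (1.16%) and 18 lower (0.148%). P3H2 stood at 7.38 ± 0.37 (SD, n = 4) with E2s+PROG and 10.63 ± 0.16 with E2+PROG. PHACTR3 stood at 5.46 and 9.20, AKR1C2 at 5.73 and 9.17, NELL2 at 7.39 and 10.63, and FKBP5 at 10.20 and 11.39. PHACTR3 and AKR1C2 were above background on 0 of 4 E2s+PROG arrays. PDZK1, by contrast, stood at 11.14 with E2s+PROG and 10.11 with E2+PROG, GREB1 at 10.63 and 11.20, PGR at 8.19 and 7.39, and ESR1 at 11.02 and 10.08. Of the progestin-induced list 2 members rose and 1 fell with E2s+PROG, and of the estrogen-induced list 23 rose and 0 fell.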

How the data were processed

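Per the file headers, the deposited table holds a raw intensity and a detection p-value for each of 48803 Illumina probes on 36 arrays, which the authors exported without normalization. A second deposited table of intensity values was, on each array, a straight line of the raw intensity and served as an alternative. The scanner software and its version are not given in the sources used here. Background correction and quantile normalization on the log2 scale used neqc (offset 16) in limma 3.58.1 (R 4.3.3, with the data.table package, version 1.17.8). Probes with a detection p-value under 0.05 on 4 or more of the 36 arrays were kept (21116), and genes were named from GEO's platform annotation: 27578 probes had 1 symbol, 13 several and 21212 none. For a gene with several probes (3207 genes), the brightest probe, by its average over the 36 arrays, stood for the gene. limma was fitted with 1 mean per group over all 36 arrays (27 residual degrees of freedom), with Benjamini-Hochberg adjustment over 12195 genes. Intervals are 95%, and the number of arrays limits precision.

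Named genes are the 12 largest changes in each direction among genes past the threshold whose arrays do not overlap, up to 6 per list and per difference, and genes set by name, 107 in all. The members and the 24 lists (928 entries, 754 tested) were chosen with earlier results of these data known. TNFSF11 was not among the genes tested. The fit was tested on simulated data.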

Additional observations from a re-analysis of the deposited data

Results flagged for a closer look

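In 6 of 214 groups of 4 arrays checked, 1 array stood apart from the other 3, and chance flags about 1 in 20. AKR1C3 read 9.43 on E2+PROG replicate 1 and 6.40 on PROG replicate 2. ANXA1 read 12.08 on E2+PROG replicate 1, and BCAS1 read 11.34 on PROG replicate 1. CXCL12 read 5.91 on PROG replicate 1, below background, and MYB read 11.04 on PROG replicate 2.

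The estradiol effect with progesterone differed from that with vehicle, DHT and MPA for 188, 151 and 83 genes in tests of the difference itself. From the effect with vehicle, P3H2 differed by a log2 of 4.06, PHACTR3 by 3.83, NELL2 by 3.57, C1orf116 by 3.48, CALD1 by 3.17 and AKR1C2 by 3.16. PIP differed by -2.10, SFPQ by -1.90, AHSA2P by -1.86, BPIFB1 by -1.74, PGR by -1.68 and KCNH1 by -1.64. SFPQ lost this call in 18 of 27 alternatives and AHSA2P in 7. From the effect with DHT, PHACTR3 differed by 3.99, AKR1C3 by 3.34, P3H2 by 3.31, AKR1C2 by 3.30, C1orf116 by 3.28 and CALD1 by 3.27. SGK3 differed by -1.83, KCNH1 by -1.67, BPIFB1 by -1.66, PIP by -1.63, PDZK1 by -1.29 and PGR by -1.28, and PGR lost the call in 17 alternatives. PDZK1 lost it with the mean of its probes (adjusted p = 0.0586) and PIP under median scaling (0.086). KCNH1 and PDZK1 also lost it outside the run, where the DHT group keeps only replicate 3. From the effect with MPA, AKR1C2 differed by 3.57, PHACTR3 by 3.04, C1orf116 by 3.03, ANXA1 by 2.96, P3H2 by 2.64 and NELL2 by 2.58. BPIFB1 differed by -2.06, PIP by -1.19 and CBLN2 by -1.18, and PIP lost the call in 18 alternatives.

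Of 4742 probes without a single gene name, 71 passed in E2+PROG against PROG, 57 higher and 14 lower. Of the genes tested, 4.81% passed. These probes were fitted and adjusted apart from the genes.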

How the results depend on the processing

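Of 97 named genes past the threshold, 59 passed in all 19 alternatives, 8 of which leave out 1 array. The count of 586 became 375 under median scaling, 1032 with array weights (67.4% higher against 78.3%) and 303 outside columns 13 to 24, and ran from 391 without E2+PROG replicate 2 to 702 without E2+PROG replicate 1. With columns 13 to 24 as a block it was 524. The difference from the effect with vehicle, 188 genes, became 108 with only the groups compared, 607 with array weights and 435 with the column block, and ran from 116 to 393 with 1 array left out. The difference from DHT, 151 genes, became 69 under median scaling, 1760 with array weights (52.2% higher), 95 with the column block and 36 outside the run, and ran from 106 to 644. The difference from MPA, 83 genes, became 131 with array weights and 47 outside the run, and ran from 65 to 88. The cause of these changes was not tested, and fewer arrays entered the fits outside the run. For DHT the fit outside the run rests on DHT replicate 3 alone, so no conclusion is drawn from its count. Replicate numbers were not taken to pair the samples, since 1 of 4 same-number correlations (0.03 to 0.25) was under 0.1, although 3 of 4 arrays correlated best with their own number. With the replicate number as a block the counts were 583, 180, 143 and 87, AGR2, AURKB, HYOU1 and SRD5A1 did not pass (0.0547 to 0.0622), and 3 G1/S and 1 G2/M genes rose. Genes that changed sign, never past the threshold, were UGT2B28 (0.16 with the authors' table, 0.03 with the column block, and -0.14 to 0.05 with 1 array left out) and XBP1 (0.20 under median scaling, 0 with the authors' table, 0.03 with the mean of probes, and -0.13 to 0.04 with 1 array left out). Probes near background give only bounds.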
